A study of Mus musculus with 16 samples.

Results

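The genes described here carry glucose into the heart cell, break it down to pyruvate and lactate, and store or release it as glycogen. They are 35 of the 24371 genes in the deposited count and FPKM tables, taken by matching the row identifier to each gene's symbol, and 34 of them passed the filter on low counts. Aldoc, the brain-type aldolase, did not pass, with 0 to 11 counts per library. The 35 genes held 0.931% to 1.205% of all counts in a library.

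Glucose enters cardiomyocytes through GLUT1 (Slc2a1) and the insulin-responsive GLUT4 (Slc2a4), and hexokinases trap it as glucose-6-phosphate. That intermediate either continues through phosphofructokinase, the main committed and regulated step of glycolysis, towards pyruvate, or is turned into glycogen. The healthy adult heart burns mostly fatty acids, and many of these steps are encoded by paralogues, of which one is typical of adult muscle and another of other or less differentiated cells. Lactate leaves or enters through the monocarboxylate transporters MCT1 (Slc16a1) and MCT4 (Slc16a3).

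The samples were 16 libraries of bulk RNA sequencing from mouse hearts, in 4 groups of 4. All came from hearts of mice with HFpEF (heart failure in which the ejection fraction is preserved), brought on by feeding a high-fat diet and giving L-NAME, a blocker of nitric oxide synthase, for 12 weeks, and no heart without the model was analysed here. All mice had both copies of Gpr91 floxed (Gpr91fl/fl), which alone are called floxed hearts. Cre hearts came from Myh6Cre Gpr91fl/fl mice, in which the cardiac myosin promoter Myh6 drives Cre in cardiomyocytes, so that other heart cells keep the receptor gene. Each genotype was sampled without and with succinate, the metabolite that activates this receptor. The ages, the sexes and the dose are not given in the sources used here. The labels do not state whether each library is a different animal, so the tests speak only of the spread among these libraries, which may be technical.

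Library totals ran from 27835235 to 34700996 counts, and 3 counts, the floor used here, equal 0.0865 to 0.108 CPM (counts scaled to a common library total), covering counting error only. The floxed gene, now named Sucnr1, had 0 to 7 counts in floxed libraries and 2 to 21 in Cre libraries. Its counts were thus not lower in the libraries labelled Myh6Cre, so these data give no check of the deletion, and genotype below means the label. All 8 ventricular cardiomyocyte markers (Myh6, Tnnt2, Tnni3, Actc1, Ryr2, Pln, Myl2 and Ttn) were detected in every library. In each group 1 library differed from its 3 partners by more than those differed among themselves. For replicate 4 of the floxed hearts without succinate, chi-square per degree of freedom was 43.6 to 56.8 against its partners and 10.7 to 24.4 among them. For replicate 1 of the Cre hearts without succinate the values were 44.2 to 57.8 and 15.9 to 29.8. For replicate 4 of the floxed hearts with succinate the values were 28.5 to 53.7 and 13.6 to 24.9. For replicate 2 of the Cre hearts with succinate they were 28.3 to 39.6 and 13.9 to 19.2. Results are also given without both libraries from hearts without succinate, a choice made after seeing the data. Those with succinate were not removed together, so this removal was one-sided. Below, the libraries that stood apart means the untreated pair. Every library was also left out singly.

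Markers of several cell types moved with succinate. The summed CPM of the ventricular cardiomyocyte markers was 47030 to 54821 without succinate in floxed hearts, against 53776 to 62432 with succinate. Of the 8, 2 rose and 0 fell, where over all genes 7.48% rose and 5.64% fell. In Cre hearts the sum was 45723 to 51239 without and 53424 to 60408 with succinate. There 1 of 8 rose (adjusted p = 0.0488 by edgeR) and 0 fell, where 0.602% of all genes rose and 0.315% fell. The 8 macrophage markers summed to 420.1 to 586 CPM without and 234 to 422 CPM with succinate in floxed hearts, where 5 fell and 0 rose. In Cre hearts the macrophage sums were 456 to 738 and 303 to 541 CPM, and 0 passed by edgeR (2 at an unadjusted p under 0.05). The 6 neutrophil markers summed to 4.73 to 7.17 and 2.54 to 4.76 CPM in floxed hearts, with 2 of 3 tested falling and Ly6g at 0 in all groups but floxed hearts with succinate. The sums of the 6 measured white adipocyte markers were 556 to 1177 and 839.6 to 1656 CPM in floxed hearts, with Retn at 0 with succinate. In Cre hearts these were 492 to 1038 and 933 to 1416 CPM. The adipocyte sums overlapped in both genotypes. Only 1 of these markers, Fabp4, had enough counts to be tested. By edgeR it did not pass in floxed (adjusted p = 0.0932) or Cre hearts (adjusted p = 0.411), and passed with succinate averaged (adjusted p = 0.0336). Endothelial and fibroblast sums overlapped between hearts with and without succinate in both genotypes, as did those of smooth muscle and pericytes. Of the 8 smooth muscle and pericyte markers, 1 rose and 0 fell in each genotype. Of all 8, 5 in floxed and 4 in Cre hearts had a negative log2 change. In bulk tissue, fewer cells of a type and less RNA per cell cannot be told apart, and the part of these markers in the results below was not tested.

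Levels of the pathway genes spanned a wide range (plot of FPKM by gene). The muscle-type or heart-type paralogue had the higher level for Slc2a4, Pfkm, Pgam2, Eno3, Ldhb and Pygm, but not for the hexokinases, where Hk2 and Hk1 were about equal. FPKM, the authors' count scaled by gene length and library total, is used to compare genes. Ldhb, the heart-type lactate dehydrogenase, was the most abundant, at 963 ± 125 FPKM over the 16 libraries (SD). Pgam2, the muscle phosphoglycerate mutase, followed at 506 ± 48.5 FPKM, then Tpi1 (triose phosphate isomerase) at 469.7 and Pygm (muscle glycogen phosphorylase) at 352 FPKM. Pgam2 and Tpi1 had overlapping ranges, 431 to 613 and 437 to 555 FPKM, so their order does not exceed the spread. Pfkm (muscle phosphofructokinase), Pygb (brain glycogen phosphorylase) and Gpi1 (glucose-6-phosphate isomerase) had mean levels of 261, 228 and 201 FPKM.

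The intermediate levels were those of Pgk1 (phosphoglycerate kinase, 155 FPKM), Eno3 (muscle enolase, 149 FPKM), Pkm (pyruvate kinase, 134 FPKM), Gapdh (100.1 FPKM) and Ldha (99.1 FPKM). Below them in mean FPKM were Ugp2 (87.1), which makes the UDP-glucose used for glycogen, Slc2a4 (86.3), Pgm1 (phosphoglucomutase, 77.1) and Eno1 (69.2). Slc16a1 was at 47.2, the hexokinases Hk2 and Hk1 at 31.5 and 31.4, and Pfkl (liver phosphofructokinase) at 28.7 FPKM. Gys1 (muscle glycogen synthase) was at 27.8, Pgam1 at 22.1, Pfkp (platelet phosphofructokinase) at 14.4, Gbe1 (glycogen branching enzyme) at 14.1 and Pfkfb2 at 13.1 FPKM. The lowest levels in mean FPKM were those of the phosphorylase kinase subunits Phka1 (5.97) and Phkg1 (4.56), Slc2a1 (4.11), Pfkfb1 (2.53), Aldoa (2.52), Pfkfb3 (2.03), Pygl (1.66), Pfkfb4 (0.81), Slc16a3 (0.46) and Aldoc (0.03).

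**Figure D1:**
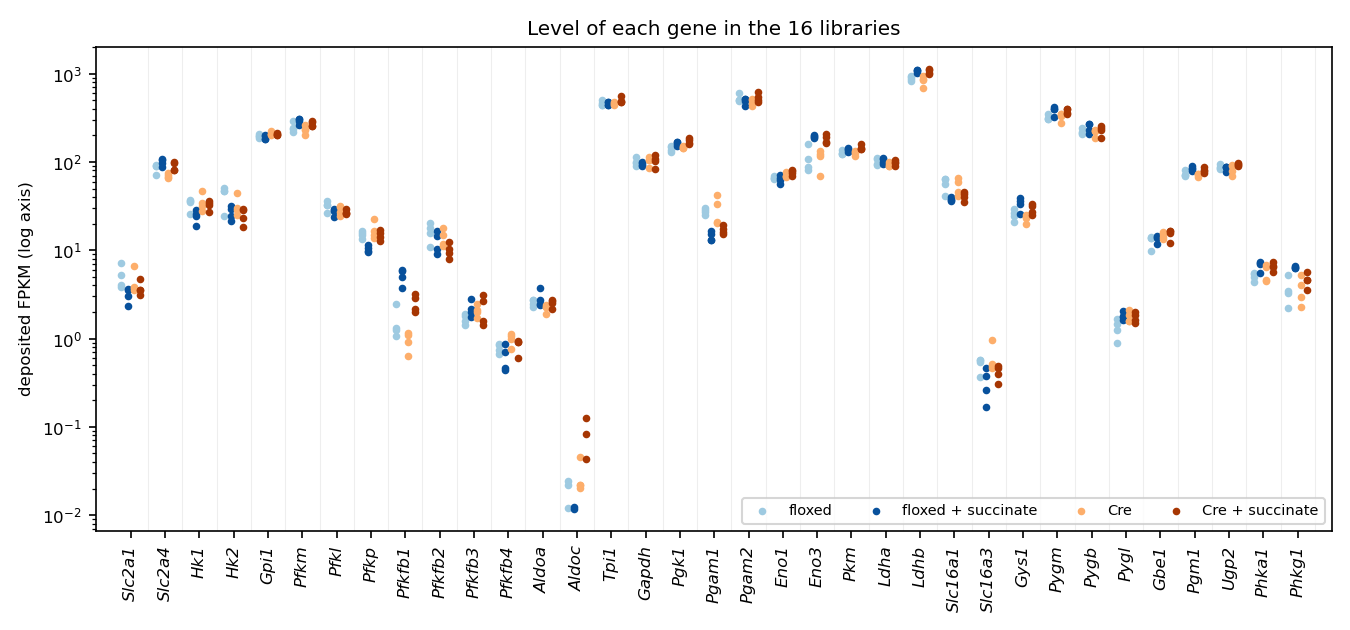
Deposited FPKM (log axis) of the 35 genes, in pathway order, in the 16 libraries, coloured by group; a library at 0 is not drawn. Levels span from Ldhb at a mean of 963 FPKM to Aldoc at 0.03 FPKM, and within a gene the groups lie close together except for a few such as Pfkfb1.

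These levels rest on the single length per gene implied by the authors' FPKM. It was 5457 bases for Eno3 against 2005 for Eno1, 5342 for Ldha against 1304 for Ldhb, and 7687 for Pkm, so an mRNA shorter than the implied length has its level understated. Aldoa (aldolase A, 2320 counts in all) and Gapdh have near-identical copies elsewhere in the genome. Eno1 has a copy too, Eno1b, with 679 counts in all. How reads that map to several places were counted is not stated, so the levels of these genes are uncertain. The same holds for the share of Eno3 in both enolases, given below.

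Succinate in floxed hearts was compared first. In these hearts 5 of the 34 tested genes rose and 3 fell at an adjusted p under 0.05 (edgeR's quasi-likelihood test, Benjamini-Hochberg over 14607 genes). Those that rose were Pfkfb1, which makes or removes the phosphofructokinase activator fructose-2,6-bisphosphate, the muscle enolase Eno3, the glycogen synthase Gys1 and the phosphorylase kinase subunits Phka1 and Phkg1. Those that fell were the platelet phosphofructokinase Pfkp, the non-muscle phosphoglycerate mutase Pgam1 and the lactate transporter Slc16a1. Over all tested genes 13.1% were called, 7.48% higher and 5.64% lower (1917 of 14607, 1093 and 824). The median log2 fold change was 0.09 over the 34 genes and 0.00 over all genes. On FPKM with a mean of at least 1 the calls were 693 higher and 907 lower over all genes, and 4 higher and 3 lower among 32 genes of the pathway. DESeq2 called 16 of the 34 genes, 10 higher and 6 lower, beside 2540 of all 14607 genes (1335 higher and 1205 lower). Voom called 17, 11 higher and 6 lower, beside 2925 of all genes (1645 higher and 1280 lower). Without both untreated libraries that stood apart, 12 of 34 were called, 6 in each direction. Over all genes 1912 of 14714 were called in that fit, 985 higher and 927 lower. Gys1 and Phka1 then no longer passed.

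With succinate averaged over the genotypes, 12 rose and 4 fell, against a background of 19.0% of all genes called, 10.6% higher and 8.45% lower (2781 genes, 1547 and 1234). On FPKM with a mean of at least 1 the calls were 987 higher and 1357 lower over all genes, and again 12 higher and 4 lower in the pathway. The median log2 fold change was 0.10 over the 34 genes and 0.01 over all genes. This average uses the same libraries as the comparisons within each genotype and is no independent repeat of them. In Cre hearts alone 2 of 34 passed, Pfkfb1 higher and Pgam1 lower, against 0.917% of all genes, 0.602% higher and 0.315% lower (134 genes, 88 and 46). The median log2 fold change was 0.12 in Cre hearts. The 8 genes called in floxed hearts all passed in the average too. The averaged log2 changes were 1.63 ± 0.18 for Pfkfb1, 0.82 ± 0.15 for Eno3, 0.64 ± 0.17 for Phkg1, 0.44 ± 0.09 for Gys1 and 0.38 ± 0.09 for Phka1. They were -0.81 ± 0.12 for Pgam1, -0.43 ± 0.10 for Slc16a1 and -0.32 ± 0.08 for Pfkp. The heat map shows each library.

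**Figure D2:**
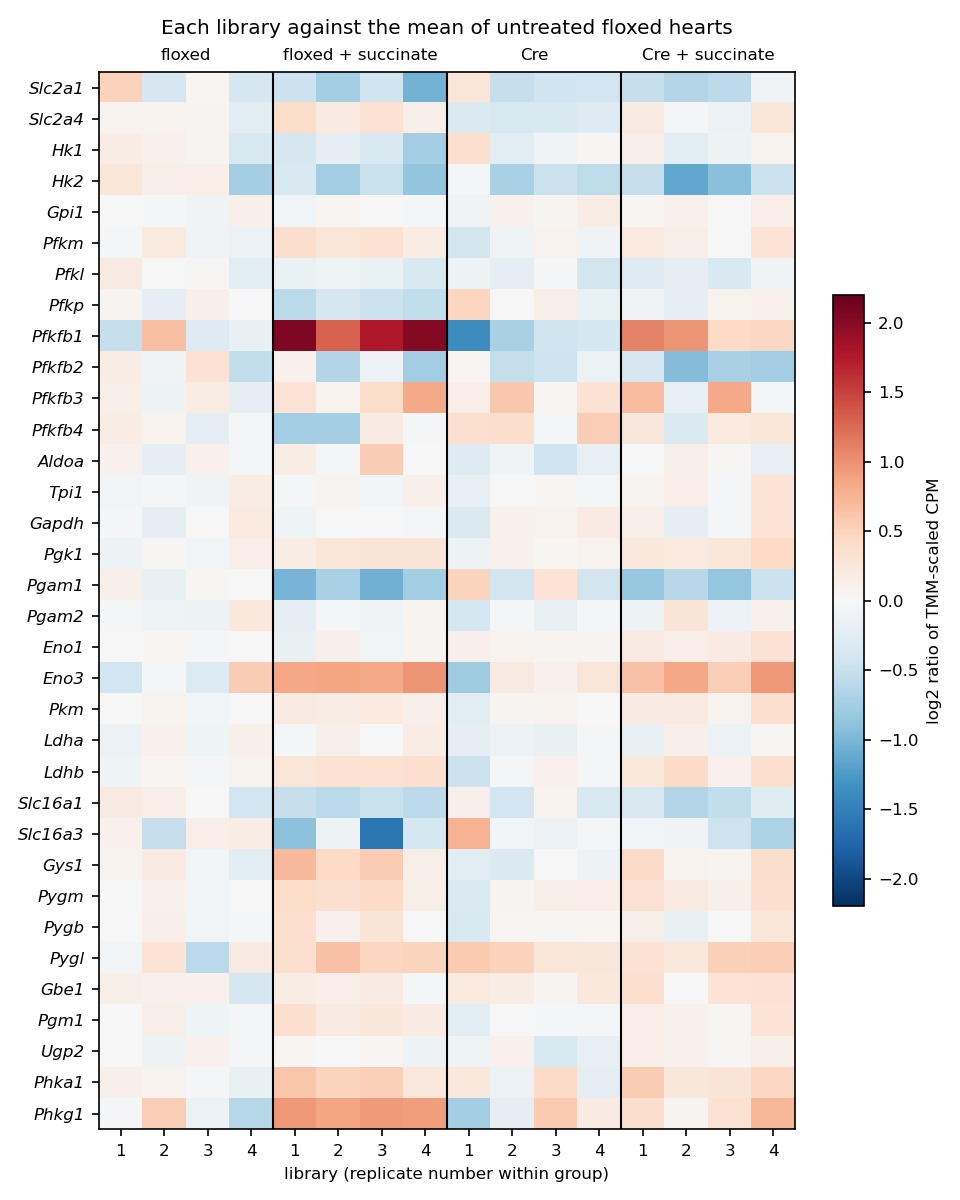
Log2 ratio of TMM-scaled CPM in each of the 16 libraries (columns, by group) to the mean of the floxed hearts without succinate, for the 34 tested genes (rows, in pathway order). Pfkfb1 and Eno3 are red and Pgam1 blue in all 8 libraries with succinate; replicate 1 of the Cre hearts without succinate has low Eno3 and Pfkfb1 and high Pgam1.

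The promoters of 4 genes are shown here because their RNA went different ways: Pgam1 and Pfkp fell, Eno3 rose, and the test did not pass for Pgam2, the muscle counterpart of Pgam1. Each is the window from 250 bases before to 50 after the start in RefSeq (GRCm38.p6), 5′ to 3′ on the gene's strand, with matches to the motifs searched in capitals. The windows are chr19:41911621-41911920 (plus strand) for Pgam1, chr11:5803747-5804046 (minus strand) for Pgam2, chr11:70656926-70657225 (plus strand) for Eno3 and chr13:6648722-6649021 (minus strand) for Pfkp.
Pgam1: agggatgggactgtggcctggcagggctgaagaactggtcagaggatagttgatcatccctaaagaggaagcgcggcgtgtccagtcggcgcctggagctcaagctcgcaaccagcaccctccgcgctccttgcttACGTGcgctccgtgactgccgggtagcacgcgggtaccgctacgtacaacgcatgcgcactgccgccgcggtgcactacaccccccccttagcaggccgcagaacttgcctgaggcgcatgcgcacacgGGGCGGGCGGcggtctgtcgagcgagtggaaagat
Pgam2: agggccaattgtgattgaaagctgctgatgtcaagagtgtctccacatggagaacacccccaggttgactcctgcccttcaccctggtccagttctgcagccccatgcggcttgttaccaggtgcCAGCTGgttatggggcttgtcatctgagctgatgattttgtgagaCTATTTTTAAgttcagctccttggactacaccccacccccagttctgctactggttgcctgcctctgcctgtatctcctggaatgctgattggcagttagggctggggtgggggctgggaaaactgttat
Eno3: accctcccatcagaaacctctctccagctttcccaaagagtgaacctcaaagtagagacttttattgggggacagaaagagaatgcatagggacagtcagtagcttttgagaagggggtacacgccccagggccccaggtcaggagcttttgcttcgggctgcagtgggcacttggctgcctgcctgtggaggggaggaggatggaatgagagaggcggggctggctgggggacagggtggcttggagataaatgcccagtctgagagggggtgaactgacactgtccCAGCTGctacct
Pfkp: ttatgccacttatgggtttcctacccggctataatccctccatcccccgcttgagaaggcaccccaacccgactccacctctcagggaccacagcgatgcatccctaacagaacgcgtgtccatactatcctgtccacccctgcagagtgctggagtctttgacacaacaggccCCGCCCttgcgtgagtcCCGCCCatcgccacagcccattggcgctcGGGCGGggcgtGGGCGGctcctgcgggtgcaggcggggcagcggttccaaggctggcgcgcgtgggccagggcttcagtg

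The motifs searched on both strands were GGGCGG (a GC box), CAGCTG (an E-box of muscle regulators), ACGTG (the core of a hypoxia response element, also inside CACGTG) and the MEF2 site. A core promoter element with the letters TATAAA was searched as well. The capitals mark 2 overlapping GC boxes and 1 hypoxia core in Pgam1, 1 E-box and 1 MEF2 site in Pgam2, 1 E-box in Eno3 and 4 GC boxes in Pfkp. Of 32851 RefSeq windows of this length, 35.7% hold the GC box, 16.3% the E-box, 19.6% the hypoxia core, 13.6% the core promoter element and 3.19% the MEF2 site. None of the 4 windows printed holds the core promoter element. The windows held 30 CpG dinucleotides in Pgam1 and 21 in Pfkp, against 1 in Pgam2 and 3 in Eno3, where the median window has 7. Of the other genes that fell in floxed hearts, the Slc16a1 window had 42 CpG, and of those that rose, the Phkg1 window had 2, Gys1 14, Phka1 25 and the 4 windows of Pfkfb1 had 1, 20, 1 and 2. A match is a run of letters and not a site or a cause.

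At the entry of glucose, the GLUT4 gene Slc2a4 rose with succinate averaged over genotypes, by 0.34 ± 0.07 on the log2 scale (SE, adjusted p = 0.00304). Without succinate it was at 281, 279, 277 and 225 CPM in floxed hearts (replicates 1 to 4, CPM scaled by edgeR's TMM factors here and below) and 214, 207, 209.6 and 217 in Cre hearts. With succinate it was at 349.9, 304, 336 and 292 in floxed hearts and 304, 261, 243 and 320.4 in Cre hearts. Within each genotype all 4 values with succinate lay above all 4 without it, although neither comparison alone passed (floxed 0.27 ± 0.10, adjusted p = 0.082; Cre 0.41 ± 0.10, adjusted p = 0.0577).

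GLUT1, the basal transporter encoded by Slc2a1, had values of 19.3, 10.5, 14.1 and 10.5 CPM without succinate in floxed hearts, against 9.83, 8.11, 10.002 and 6.65 with succinate. Those groups did not overlap, and the change of -0.65 ± 0.21 had an adjusted p of 0.0536. Without both libraries that stood apart it passed, at -0.77 (adjusted p = 0.013). In Cre hearts the change was -0.20 ± 0.21, with overlapping groups, and 0.0045 without both libraries. As a share of the summed FPKM of both transporters, Slc2a1 made up 5.59% ± 1.34 in floxed hearts without succinate against 3.03% ± 0.33 with it (SD, n = 4). In Cre hearts the share was 5.94% ± 1.499 and 3.97% ± 0.43.

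Hk2, the insulin-responsive hexokinase of muscle, fell with succinate averaged over genotypes (log2 -0.46 ± 0.15, adjusted p = 0.0374). It was at 300.3, 275, 277 and 149 CPM without succinate in floxed hearts, against 199, 148, 178 and 137 with succinate. Cre hearts had 247, 153, 179.6 and 170.4 without succinate, against 173, 114, 132 and 179.8 with succinate. Replicate 4 of the floxed hearts lay among the values with succinate, and both pairs of groups overlapped. Without both libraries that stood apart, the floxed comparison passed at -0.79 (adjusted p = 0.00232), while the averaged call was lost in 7 of 16 leave-one-out fits. The averaged call was also lost with no filter on low counts and on FPKM with a pseudocount of 1 or 0.1 (adjusted p up to 0.104). Hk1, the constitutive hexokinase, had a log2 change of -0.40 ± 0.14 in floxed hearts (adjusted p = 0.0704) and -0.06 ± 0.14 in Cre hearts. Without both libraries it passed in floxed hearts, at -0.52 (adjusted p = 0.00856), and was 0.05 in Cre hearts.

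Gpi1, which converts glucose-6-phosphate to fructose-6-phosphate, had a log2 change of -0.01 in floxed hearts (95% interval -0.18 to 0.16) and 0.01 in Cre hearts (-0.15 to 0.18).

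With succinate averaged over genotypes, 1 of the 3 phosphofructokinase genes rose (Pfkm) and 1 fell (Pfkp), where 10.6% of all genes rose and 8.45% fell. Pfkp also fell in floxed hearts alone, 1.41-fold (log2 -0.49 ± 0.12, adjusted p = 0.0102). Pfkm, the muscle subunit, rose 1.22-fold in the average (0.28 ± 0.08, adjusted p = 0.0163) and passed in neither genotype alone. Pfkp was at 70.7, 58.2, 72.8 and 68.1 CPM without succinate in floxed hearts, against 44.8, 52.1, 48.4 and 46.3 with succinate, with no overlap. Among Cre hearts the levels were 93.4, 67.3, 73.9 and 61.1 without succinate, against 64.2, 58.2, 71.4 and 71.9 with succinate, which overlap (-0.15 ± 0.11, adjusted p = 0.58). The floxed call held under all 12 alternatives and all 8 leave-one-out fits. Pfkp overlaps Pitrm1, whose change in floxed hearts was 0.05.

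Pfkm was at 797, 939.6, 768 and 743 CPM without succinate in floxed hearts, against 1065, 980.5, 1026 and 910.5 with succinate. The 4 Cre libraries of each group were at 616, 772, 858 and 769.9 without and 944, 886, 816 and 1004 with succinate. The groups overlapped by 1 library in each genotype, and the averaged call did not hold without both libraries that stood apart (adjusted p = 0.0523). Pfkl, the liver subunit, had a log2 change of -0.17 in floxed hearts and -0.04 in Cre hearts, neither passing. Of the FPKM of the 3 subunits, Pfkm made up 83.9% ± 1.91 in floxed hearts without and 88.5% ± 0.62 with succinate, and Pfkp 5.23% ± 0.86 and 3.17% ± 0.30.

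Pfkfb1, the bifunctional enzyme known from liver and muscle, had the largest rise of the 34 genes, 3.49-fold in floxed hearts (log2 1.80 ± 0.26, adjusted p = 0.000406). It was at 3.26, 7.33, 3.82 and 4.16 CPM without succinate in floxed hearts, against 19.2, 11.4, 15.7 and 18.8 with succinate. The Cre values were 1.79, 2.85, 3.42 and 3.53 without and 9.91, 9.09, 6.26 and 6.36 with succinate, a 2.74-fold rise (1.45 ± 0.26, adjusted p = 0.0173). The groups did not overlap in either genotype. All 12 alternatives and all 8 leave-one-out fits kept the floxed call. In Cre hearts the call was lost on FPKM with a pseudocount of 1, without both libraries that stood apart, and without replicate 1 of the Cre hearts either with or without succinate. The gene overlaps Apex2, a DNA repair gene, which rose by 0.69 in floxed hearts (adjusted p = 0.0163), and the strand used in counting is not stated.

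The other members of this family did not pass in any succinate comparison. Pfkfb2, the heart isoform, had a log2 change of -0.32 ± 0.20 in floxed hearts and -0.44 ± 0.20 in Cre hearts. Pfkfb3, the isoform induced by hypoxia and inflammation, had a log2 change of 0.43 ± 0.21 and 0.10 ± 0.21, and Pfkfb4 of -0.28 ± 0.21 and -0.20 ± 0.21. Pfkfb2 remained the most abundant of the 4, with 79.7% ± 4.38 of their FPKM without succinate in floxed hearts, against 60.7% ± 7.81 with succinate. The share of Pfkfb1 was 7.82% ± 3.39 and 25.2% ± 4.33. In Cre hearts its share was 5.52% ± 1.85 and 16.6% ± 4.02. The plots by library show the values of 8 genes, those called in floxed hearts.

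**Figure D3:**
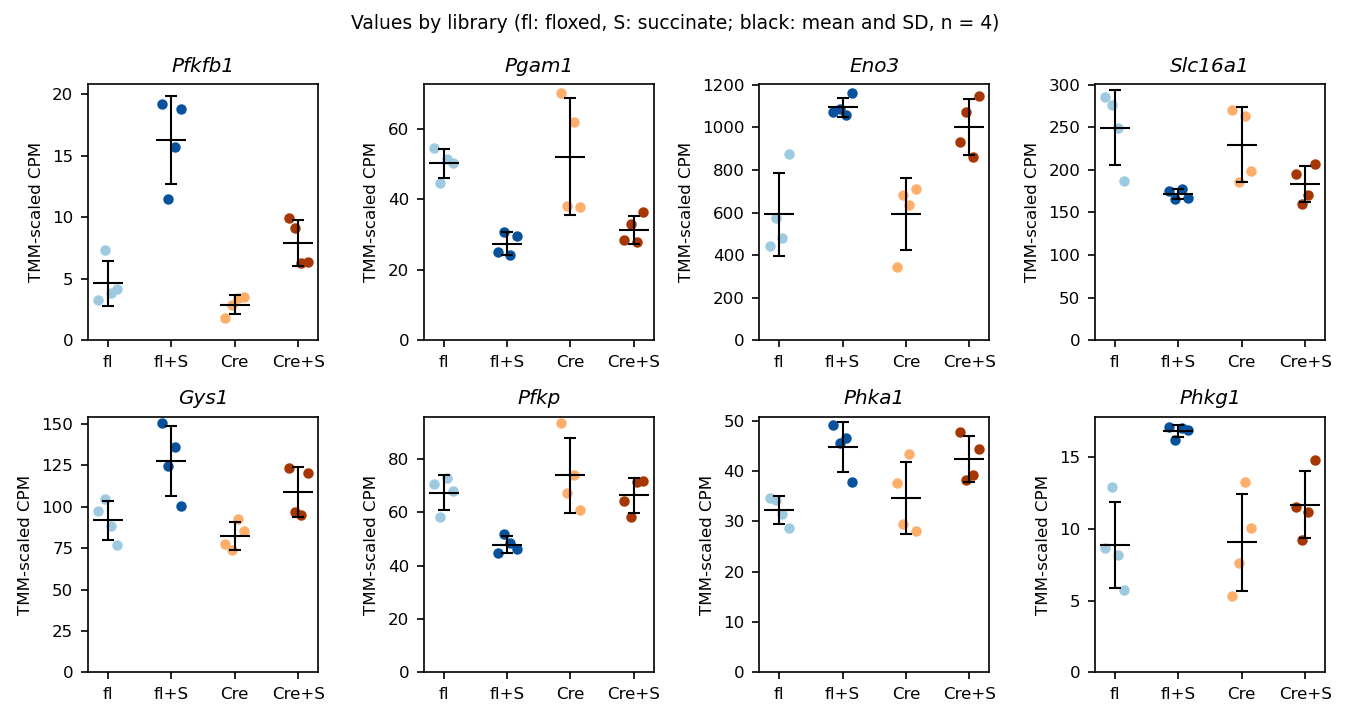
TMM-scaled CPM of the 8 genes called for succinate in floxed hearts, by library, in floxed (fl) and Cre hearts without and with succinate (+S); points are libraries, black lines the mean and SD (n = 4), and axes start at 0. Pfkfb1, Pgam1 and Eno3 separate in both genotypes, and Gys1 separates in Cre hearts and overlaps in floxed hearts. Pfkp, Slc16a1, Phka1 and Phkg1 separate in floxed hearts and overlap in Cre hearts. The interaction passed for none of them.

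Of the 9 tested genes from aldolase to pyruvate kinase, 3 rose and 1 fell with succinate averaged over genotypes, where 19.0% of all genes were called. Aldoa had a log2 change of 0.19 ± 0.15 and 0.24 ± 0.15 in floxed and Cre hearts and Tpi1 of 0.03 ± 0.09 and 0.17 ± 0.09. Gapdh had a log2 change of -0.03 (95% interval -0.28 to 0.22) and 0.04 (-0.21 to 0.29). Pgk1, the first enzyme of the pathway to yield ATP, rose with succinate averaged over genotypes by 0.26 ± 0.06 (adjusted p = 0.00574). It was at 236, 259, 246 and 281 CPM without and 287, 307, 309.6 and 311 with succinate in floxed hearts, with no overlap. Again without overlap, the Cre libraries were at 238, 272, 262 and 271 without and 299.9, 298, 308 and 346 with succinate.

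Pgam1 fell 1.84-fold in floxed hearts (log2 -0.88 ± 0.17, adjusted p = 0.00349). It was at 54.5, 44.6, 51.4 and 50.3 CPM without succinate, against 24.9, 30.7, 24.2 and 29.4 with succinate. Cre hearts had 70.2, 38.1, 61.8 and 37.9 without and 28.3, 33.0, 27.8 and 36.2 with succinate, 1.66-fold lower (-0.73 ± 0.17, adjusted p = 0.0488). No value with succinate reached the lowest without it in either genotype. The floxed call held under all 12 alternatives and all 8 leave-one-out fits, whereas the Cre call was lost under 8 of 12 alternatives and 6 of 8 leave-one-out fits. Pgam2 had a log2 change of -0.06 in floxed hearts (95% interval -0.30 to 0.18) and 0.19 in Cre hearts (-0.05 to 0.43). Pgam1 made up 5.04% ± 0.62 of the FPKM of both mutases without succinate in floxed hearts, against 2.90% ± 0.23 with succinate.

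Eno3 rose 1.85-fold in floxed hearts (log2 0.88 ± 0.21, adjusted p = 0.0121). It was at 443, 575, 478 and 873 CPM without succinate, against 1071, 1085, 1058 and 1161 with succinate. Among Cre hearts the levels were 344, 683, 636 and 711 without and 931, 1071, 859 and 1146 with succinate (0.76 ± 0.21, adjusted p = 0.0965). Groups did not overlap in either genotype, and the 2 libraries that stood apart had the highest and the lowest value without succinate. Without both, the changes were 1.12 in floxed hearts (adjusted p = 1.26e-05) and 0.55 in Cre hearts (adjusted p = 0.0449), while without replicate 3 of the floxed hearts the floxed adjusted p was 0.0509. Pfn1, the profilin gene that overlaps Eno3, fell by 0.35 in floxed hearts (adjusted p = 0.0183).

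Eno1, the ubiquitous enolase, had a log2 change of -0.01 in floxed hearts (95% interval -0.16 to 0.15) and 0.14 in Cre hearts. The share of Eno3 in the FPKM of both enolases was 61.2% ± 6.96 without and 75.4% ± 1.38 with succinate in floxed hearts, and 60.0% ± 8.79 and 70.6% ± 2.34 in Cre hearts. Pkm rose with succinate averaged over genotypes by 0.20 ± 0.06 (adjusted p = 0.0363). It was at 963, 1018, 924 and 965 CPM without and 1105, 1084, 1117 and 1046 with succinate in floxed hearts, and 825, 1008, 1025 and 968 without and 1097, 1115, 1019 and 1256 with it in Cre hearts. The floxed groups did not overlap and the Cre groups did by 1 library. The averaged call was lost under 6 of 11 alternatives, among them other scalings, and 11 of 16 leave-one-out fits.

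**Figure D4:**
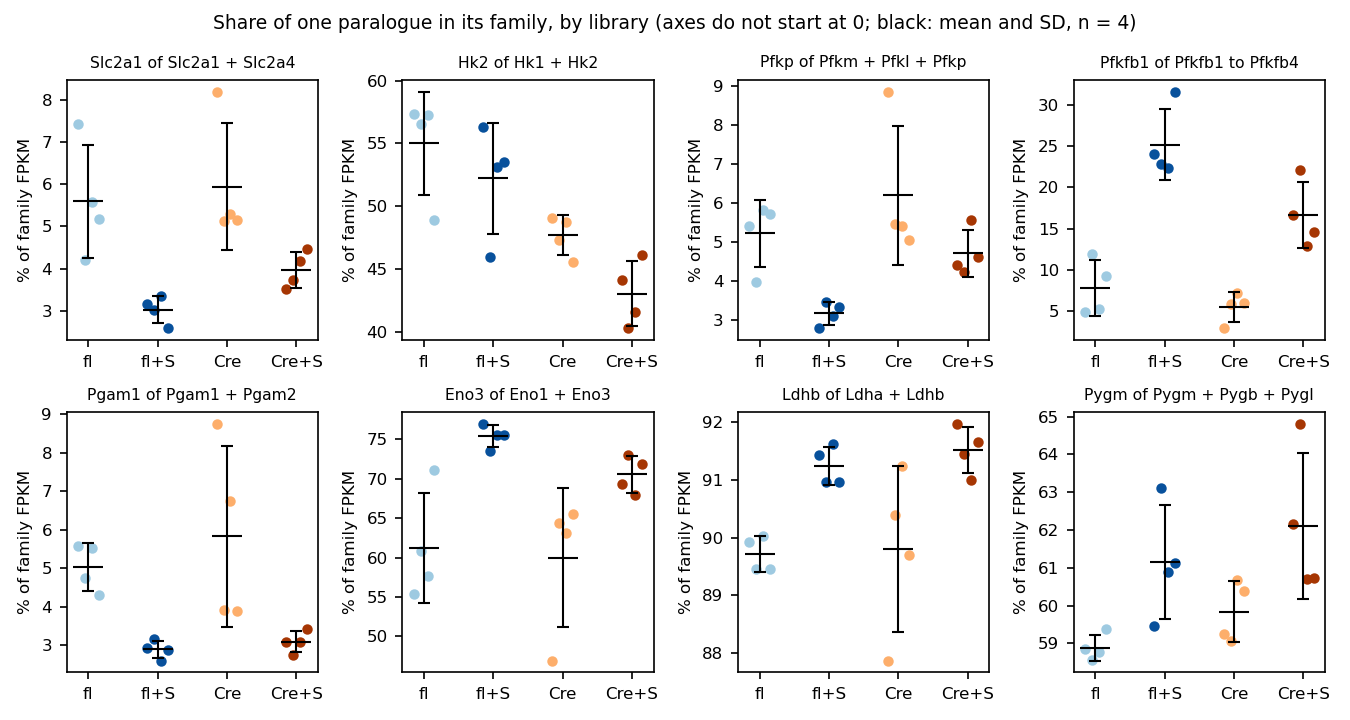
Share of a paralogue in the summed FPKM of its family, in percent, by library and group (fl: floxed, S: succinate); points are libraries, black lines the mean and SD (n = 4), and axes do not start at 0. The share of Eno3 is between 73.6% and 77.0% in floxed hearts with succinate and between 55.3% and 71.1% without it, and the share of Pgam1 is lower with succinate in both genotypes.

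Among the lactate genes, Ldhb rose with succinate averaged over genotypes by 0.35 ± 0.08 (1.28-fold, adjusted p = 0.00467) and Slc16a1 fell. Ldhb, whose enzyme favours the use of lactate, was at 1075, 1184, 1111 and 1205 CPM without and 1379, 1448, 1443 and 1481 with succinate in floxed hearts. The 4 Cre libraries of each group were at 826, 1123, 1226 and 1108 without and 1339, 1524, 1217 and 1473 with succinate. The floxed groups did not overlap and the Cre groups did by 1 library. Ldha, whose enzyme favours lactate production, had a log2 change of 0.07 (95% interval -0.12 to 0.26) and 0.10 (-0.09 to 0.29). Ldhb made up 89.7% ± 0.31 of the FPKM of both genes without and 91.2% ± 0.33 with succinate in floxed hearts, a share that depends on the implied lengths.

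Slc16a1 fell 1.45-fold in floxed hearts (log2 -0.54 ± 0.14, adjusted p = 0.0159). It was at 285, 276, 249 and 187 CPM without succinate, against 176, 166, 178 and 167 with succinate. The Cre values were 271, 186, 263 and 199 without and 195, 160.3, 170.5 and 207 with succinate (-0.33 ± 0.14, adjusted p = 0.289). The floxed groups did not overlap, with replicate 4 closest to the values with succinate, and the Cre groups overlapped. The floxed call was lost only on FPKM with a pseudocount of 1 (adjusted p = 0.0611), among 12 alternatives and 8 leave-one-out fits. Slc16a3, the lactate exporter of glycolytic cells, had 19 to 120 counts per library and had a log2 change of -0.65 ± 0.30 and -0.49 ± 0.29, neither passing.

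Of the 9 tested genes of glycogen metabolism, 3 rose in floxed hearts and 5 with succinate averaged over genotypes, and 0 fell in either. Over all genes 7.48% and 10.6% rose in these comparisons. Gys1 rose 1.39-fold in floxed hearts (log2 0.48 ± 0.13, adjusted p = 0.0208). It was at 97.4, 104, 88.2 and 77.1 CPM without succinate, against 151, 124, 136 and 100.3 with succinate. Cre hearts had 77.8, 73.9, 92.7 and 85.2 without and 123, 96.6, 95.3 and 121 with succinate (0.40 ± 0.13, adjusted p = 0.139). The floxed groups overlapped by replicate 4 with succinate and the Cre groups did not overlap. Ruvbl2, which overlaps Gys1, fell by 0.29 in floxed hearts (adjusted p = 0.0422). The Gys1 call in floxed hearts was lost without floxed replicate 3 or 4 or floxed replicate 1 or 3 with succinate, and on FPKM with a pseudocount of 1 or 0.1 (adjusted p up to 0.113).

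Pygm, which releases glucose-1-phosphate from glycogen in muscle, rose with succinate averaged over genotypes by 0.28 ± 0.08 (adjusted p = 0.0149). It was at 899.6, 965, 869 and 898 CPM without and 1201, 1158, 1210.4 and 989.9 with succinate in floxed hearts, with no overlap. Among Cre hearts the levels were 726, 950.1, 996 and 1000.3 without and 1140.4, 1039.8, 984 and 1176 with succinate, which overlap. Pygb had a log2 change of 0.19 ± 0.12 in floxed and 0.11 ± 0.12 in Cre hearts. Pygl, the liver phosphorylase, had a log2 change of 0.50 ± 0.17 in floxed hearts (adjusted p = 0.0618) and 0.01 ± 0.17 in Cre hearts, at 72 to 206 counts per library.

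Phka1 and Phkg1 encode the muscle regulatory alpha and catalytic gamma subunits of the kinase that switches glycogen phosphorylase on. Phka1 rose 1.39-fold in floxed hearts (log2 0.47 ± 0.13, adjusted p = 0.0201), from 34.7, 34.2, 31.4 and 28.7 to 49.2, 45.5, 46.6 and 37.8 CPM. Phkg1 rose 1.89-fold (0.92 ± 0.24, adjusted p = 0.021), from 8.70, 12.9, 8.15 and 5.75 to 17.1, 16.2, 17.01 and 16.9 CPM. Neither gene overlapped between the floxed groups. In Cre hearts Phka1 was at 37.7, 29.5, 43.3 and 28.1 CPM without and 47.8, 38.3, 39.2 and 44.4 with succinate (0.29 ± 0.13, adjusted p = 0.304). Phkg1 there was at 5.31, 7.62, 13.3 and 10.05 CPM without and 11.6, 9.21, 11.2 and 14.8 with succinate (0.37 ± 0.24, adjusted p = 0.523). Both Cre comparisons overlapped. The floxed call of Phka1 was lost in 4 of 8 leave-one-out fits and on all 3 FPKM settings (adjusted p up to 0.125). That of Phkg1 was lost in 5 of 8, with no filter on low counts, and on FPKM with a pseudocount of 1 (adjusted p up to 0.0591).

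Pgm1, which interconverts glucose-1-phosphate and glucose-6-phosphate, rose with succinate averaged over genotypes by 0.24 ± 0.06 (adjusted p = 0.0106). It was at 214, 234, 201 and 213 CPM without and 278, 247, 257 and 245 with succinate in floxed hearts. The 4 Cre libraries of each group were at 182, 217, 209.8 and 213 without and 239.7, 231, 223 and 266 with succinate. Neither genotype's groups overlapped. Gbe1 had a log2 change of 0.11 (95% interval -0.11 to 0.34) and 0.07 (-0.15 to 0.29). Ugp2 had a log2 change of -0.00 (-0.19 to 0.19) in floxed hearts and 0.22 (0.03 to 0.41, adjusted p = 0.267) in Cre hearts.

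**Figure D5:**
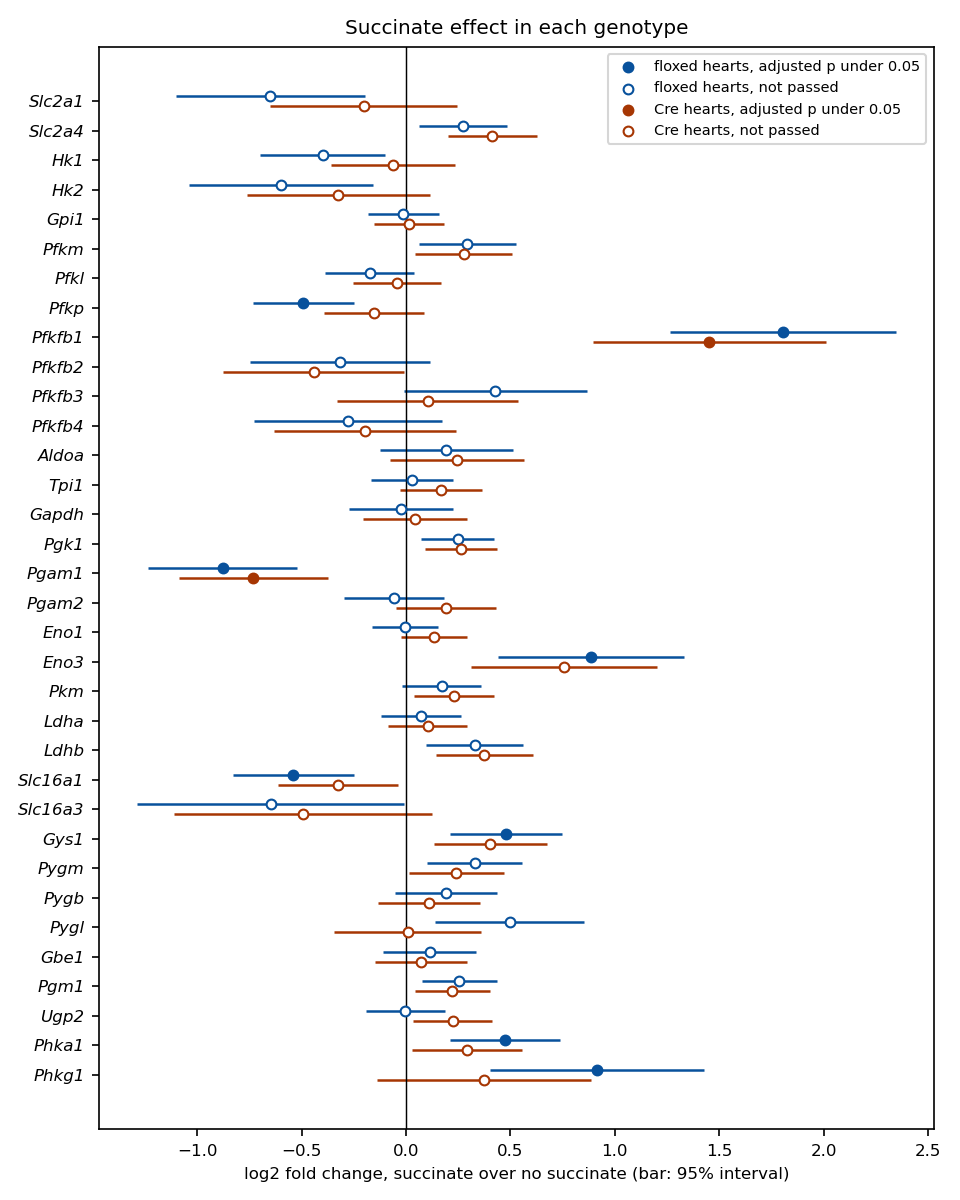
Log2 fold change of succinate over no succinate for the 34 tested genes in floxed (blue) and Cre hearts (brown), with 95% intervals from edgeR; filled points passed an adjusted p of 0.05 over all 14607 genes. In floxed hearts 8 points are filled and in Cre hearts 2, and the intervals of both genotypes overlap for every gene.

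Other genes of the same pathway were read from lists of neighbouring steps. Of 43 tested genes of uptake, glycolysis and glycogen outside those above, 7 rose and 4 fell in floxed hearts, 0 passed in Cre hearts by edgeR (10 at an unadjusted p under 0.05), and 7 rose and 5 fell with succinate averaged. These are 25.6%, 0% and 27.9% of the list, against 13.1%, 0.917% and 19.0% of all genes. Ppp1r3c, a subunit that targets protein phosphatase to glycogen, fell 2.74-fold in floxed hearts (log2 -1.46 ± 0.17, adjusted p = 8.71e-05), from 168 ± 32.4 to 61.3 ± 8.19 CPM (SD). In Cre hearts it went from 130.2 ± 37.7 to 79.4 ± 3.98 CPM (-0.71 ± 0.17, adjusted p = 0.0512). In floxed hearts Hk3, a hexokinase of white blood cells, fell by 0.95 ± 0.28 from 1.69 to 0.87 CPM. Macrophage and neutrophil markers fell in the same comparison (5 of 8 and 2 of 3 tested), and their part in the fall of Hk3 was not tested.

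Rising genes of this list included regulators and carriers of glucose entry. Tbc1d4, the Rab regulator that insulin signalling acts on to release GLUT4, rose 1.99-fold in floxed hearts (0.996 ± 0.15, adjusted p = 0.00059), from 70.4 ± 9.80 to 140.4 ± 26.0 CPM. The sugar transporter Slc2a12 rose 2.01-fold (1.01 ± 0.21, adjusted p = 0.00475) and Slc2a8 1.26-fold (0.34 ± 0.09, adjusted p = 0.0218). In Cre hearts the changes of Tbc1d4, Slc2a12 and Slc2a8 were 0.35 ± 0.15, 0.87 ± 0.21 and 0.27 ± 0.09, none passing.

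In the side branches that draw on glucose-6-phosphate and fructose-6-phosphate, 0 of 15 rose and 2 fell in floxed hearts, 0 passed in Cre hearts by edgeR (3 at an unadjusted p under 0.05), and 4 fell with succinate averaged. The share called in floxed hearts, 13.3%, is near the 13.1% of all genes, so the count of calls in either direction is no result about this list. Both of these calls were falls, and 5.64% of all genes fell there. With succinate averaged, 26.7% of the list were called, all lower, against 19.0% of all genes called and 8.45% lower. G6pdx, which opens the pentose phosphate pathway, fell by 0.42 in floxed hearts (adjusted p = 0.0183). Gfpt2, which opens the hexosamine pathway, fell 1.74-fold there (-0.80 ± 0.21, adjusted p = 0.0182). Gnpnat1 and Uap1, later hexosamine enzymes, passed in the average only, at -0.34 ± 0.10 and -0.23 ± 0.08 (adjusted p = 0.0276 and 0.0486).

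Of 13 tested targets of the hypoxia-inducible factor HIF outside the genes above, 0 rose and 4 fell in floxed hearts, 1 fell in Cre hearts and 5 fell in the average. Over all genes 5.64%, 0.315% and 8.45% fell in these comparisons. The list as a whole was mixed in floxed hearts, where 6 of the 13 had a positive and 7 a negative log2 change (median -0.045). In Cre hearts 4 were positive and 9 negative (median -0.106), and in the average 4 and 9 (median -0.051). The genes named next are those that passed. Egln3, a prolyl hydroxylase that marks HIF for destruction, fell 2.04-fold in floxed hearts (log2 -1.03 ± 0.12, adjusted p = 8.58e-05) and 1.66-fold in Cre hearts (-0.73 ± 0.12, adjusted p = 0.00877). The collagen prolyl hydroxylases P4ha1 and P4ha2 fell by 1.51 and 0.82 in floxed hearts, and Vegfa fell by 0.64. Ankrd37 passed in the average only (-0.92 ± 0.28, adjusted p = 0.0319). Of 5 genes of the glucose-sensing factors MondoA and ChREBP and their targets, 1 rose and 0 fell in floxed hearts. Over all genes 7.48% rose and 5.64% fell there. The gene that rose was Txnip, which restrains glucose uptake, at 0.82 ± 0.22 (adjusted p = 0.0201), from 767 ± 247 to 1353 ± 54.3 CPM. In Cre hearts 0 of the 5 passed by edgeR (smallest adjusted p = 0.566). In the average 1 of the 5 rose, again Txnip, and 0 fell, where 10.6% of all genes rose.

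Genotype was compared next. Without succinate 0 of the 34 genes passed, against 0.110% of all genes, 0.0890% higher and 0.0205% lower (16 genes, 13 and 3). At an unadjusted p under 0.05 there were 3 of the 34 by edgeR, and DESeq2 and voom also called 0. The smallest p belonged to Slc2a4, at -0.32 ± 0.10 in Cre hearts (adjusted p = 0.348), where its groups did not overlap, and Pfkfb1, at -0.69 ± 0.27 (adjusted p = 0.481). Without both libraries that stood apart, 1 passed: Hk2, at -0.76 ± 0.16 (adjusted p = 0.0384).

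With succinate 0 of 34 passed between genotypes, against 0.691% of all genes, 0.548% higher and 0.144% lower (101 genes, 80 and 21). At an unadjusted p under 0.05 there were 5 by edgeR, and DESeq2 and voom each called 2, beside 327 and 190 of all genes. Pfkfb1 was lower in Cre hearts by 1.04 ± 0.25 (adjusted p = 0.0629) and Pfkp higher by 0.47 ± 0.12 (adjusted p = 0.0669). For both genes the 4 libraries of each genotype did not overlap. Without both untreated libraries that stood apart, both passed (adjusted p = 0.0381 and 0.019).

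Averaged over succinate, 1 of 34 passed, Pfkfb1, which was 1.83-fold lower in Cre hearts (log2 -0.87 ± 0.18, adjusted p = 0.0193). The call was lost on FPKM with a pseudocount of 1 or 0.1 (adjusted p up to 0.0617), and without both libraries that stood apart Slc2a4 (-0.29, adjusted p = 0.0377) and Hk2 (-0.455, adjusted p = 0.0355) passed as well. The background was 1.88% of all genes, 1.30% higher and 0.575% lower (274 genes, 190 and 84). In the lists of other genes, Slc2a12 (-0.79 ± 0.15), Ldhd, a D-lactate dehydrogenase (-0.33 ± 0.07), and Sord, of the polyol route (-0.38 ± 0.07), were lower in Cre hearts. Ldhd and Sord are named after their values were seen. Skeletal muscle markers, 5 of 10 testable, summed to 4.05 to 11.2 CPM in floxed and 20.6 to 38.3 CPM in Cre libraries (scaled by library total only), with Myh1 at 0 in floxed hearts with succinate. All 8 fibroblast markers had higher values in Cre hearts (median log2 0.31), of which 1 passed, and of 4 tested atrial cardiomyocyte markers 1 was higher and 1 lower. The part of these markers in the genotype differences was not tested.

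The interaction asked whether succinate acted differently in Cre hearts. For the 34 genes 0 passed, as for all 14607 genes (0%), with 0 of 34 and 709 of all genes at an unadjusted p under 0.05 by edgeR. DESeq2 called 4 of all genes and voom 0, none among the 34. The smallest p-values in edgeR's quasi-likelihood test were those of Pfkp (0.34 ± 0.16, 95% interval -0.00 to 0.68) and Pygl (-0.49 ± 0.24, -0.99 to 0.01), both with an adjusted p of 0.97. Without both libraries that stood apart, 0 of 34 passed, with 7 of 34 and 1355 of all genes at an unadjusted p under 0.05. The smallest adjusted p among the 34 was then that of Eno3, 0.217, at -0.56 ± 0.15. The calls found in floxed and not in Cre hearts are thus not shown to differ between genotypes.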

How the data were processed

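Total RNA of hearts was sequenced as 16 libraries after TRIzol extraction and library preparation with the VAHTS Universal V6 kit, per the labels' protocols. The submitters' processing notes name fastp, HISAT2, HTSeq, R 3.2.0, DESeq2 and GRCm39; roles, strand and handling of multi-mapped reads are not stated. The deposited table of counts holds whole reads per gene. The authors also deposited FPKM, which matched each count scaled by its column sum and by 1 fixed length (22134 genes, relative spread up to 1.2e-15).

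Counts were tested with edgeR 4.0.16 (R 4.3.3; robust quasi-likelihood F-test, TMM, filterByExpr with a minimum count of 10, 14607 genes, all 16 libraries in 1 fit, 12 residual degrees of freedom, Benjamini-Hochberg over all tested genes, 0.05). Fold changes are log2 with SE. CPM are TMM-scaled. All columns were mapped to samples. The code was tested on simulated counts. Alternatives were DESeq2 1.42.0, limma 3.58.1 voom with sample weights, RLE factors, genes of the mitochondrial genome removed, an unfiltered table, a minimum count of 50, only the groups compared, a replicate block, limma on log2 FPKM (pseudocount 1 or 0.1, or a mean of at least 1) and leaving out each library. Libraries within groups had correlations of 0.978 to 0.988 and differed beyond sampling noise (smallest chi-square per degree of freedom 10.7), so none was taken as a repeat of another. The TMM factors were 0.946 to 1.09.

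The genes, lists and tests were chosen with earlier results of these data known. Every gene of the set is named with its level. Those that passed in any of 7 comparisons are given in full, as are the 2 of smallest p where none passed. From each other list, up to 6 that passed for succinate are named, and some results of these lists are not reported here. Overlapping genes and promoters were taken from RefSeq (GRCm38.p6), where 34 of 35 genes matched a promoter window. No coordinates were converted between builds.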

Additional observations from a re-analysis of the deposited data

Results flagged for a closer look

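In 136 groups of 4 libraries, 9 held a library far from the other 3, by the gap to the nearest as a share of the range. Chance flags about 1 in 20 groups. All values are TMM-scaled CPM.

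Replicate 4 of the floxed hearts without succinate was low for 3 genes. Hk2 was at 149 against 275 to 300.3 in its partners, Slc2a4 at 225 against 277 to 281, and Gbe1 at 29.7 against 40.7 to 41.6. Replicate 1 of the Cre hearts without succinate was apart for 3 genes. Slc2a1 was at 16.4 against 9.63 to 10.1, Slc16a3 at 3.204 against 1.71 to 1.85, and Pygb at 661 against 857 to 874.

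The other 3 were single cases. Slc16a3 was at 1.32 in replicate 2 of the floxed hearts without succinate, against 2.00 to 2.11. Pgk1 was at 287 in replicate 1 of the floxed hearts with succinate, against 307 to 311. Pfkfb4 was at 3.05 in replicate 2 of the Cre hearts with succinate, against 4.43 to 4.59.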

How the results depend on the processing

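None of the 33 tested changes of the genes named for a comparison changed sign under an alternative. Of all 238 changes of the 34 genes, 30 changed sign without both libraries that stood apart, none of which passed with or without them; Gapdh went to 0.04 in floxed and -0.07 in Cre hearts, Pgam2 to 0.01 in floxed hearts and Gbe1 to -0.0036 in floxed hearts. Of the values for single genes under the alternatives, 710 kept their call, 73 lost it and 10 gained it. For succinate in floxed hearts, 8 pathway genes and 1917 genes in all passed; DESeq2 called 16 pathway genes, voom 17 (2925 in all), FPKM with pseudocount 1 called 4 (954) and with pseudocount 0.1 called 1122 in all. For succinate in Cre hearts (2 and 134), DESeq2 called 6 and 488, no filter 1, only the groups compared 1 and 46, FPKM with pseudocount 1 called 0 and 44, with pseudocount 0.1 called 1 and 38, with a mean of at least 1 called 1, and removal of both libraries that stood apart left 1 and 40. For genotype without succinate (0 and 16), DESeq2 called 90 in all, only the groups compared 3, FPKM with a mean of at least 1 called 7, and without both libraries 1 and 81. For genotype with succinate (0 and 101), DESeq2 called 2 and 327, voom 2 and 190, no filter 1, only the groups compared 2, FPKM with a mean of at least 1 called 1 and 51, FPKM with pseudocount 1 or 0.1 called 41 or 52 in all, and without both libraries 2 and 158. For the interaction (0 and 0), DESeq2 called 4 in all, FPKM with pseudocount 1 or 0.1 called 2 or 1, and without both libraries 7. For succinate averaged (16 and 2781), FPKM with pseudocount 1 called 1798 in all. For genotype averaged (1 and 274), DESeq2 called 3 and 603, voom 2 and 418, no filter 2, FPKM with pseudocount 1 or 0.1 called 0 (121 or 159 in all), with a mean of at least 1 called 176 in all, and without both libraries 3. The cause of these differences was not tested.

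Leaving out 1 library gave 4 to 11 pathway genes and 1018 to 1989 genes in all for succinate in floxed hearts, 0 to 2 and 22 to 142 in Cre hearts, and 14 to 18 and 2015 to 2899 averaged. For genotype it gave 0 and 4 to 23 without succinate, 0 and 44 to 92 with it, and 1 to 2 and 156 to 308 averaged; the interaction stayed at 0. The lowest floxed count of pathway genes came without floxed replicate 3, and the highest without floxed replicate 2.

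Replicate numbers are shared between groups, and a replicate block called 12 pathway genes and 1903 genes in all for succinate in floxed hearts, 2 and 136 in Cre hearts, and 18 and 2826 averaged. For genotype the block called 0 and 11 without succinate, 0 and 92 with it, and 1 and 298 averaged; for the interaction 0. Same-numbered libraries had deviation correlations of -0.121 to 0.32, 3 of 24 above 0.1, and 5 of 16 libraries correlated best with their own number, so the numbers were not taken to pair samples. Precision at low counts is limited: Slc16a3, Pygl and Pfkfb4 had as few as 19, 72 and 67 counts in a library.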
